A study of Mus musculus with 12 samples.

Results

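The cells described here are the B cells of 1 peripheral blood library from a treatment-naive C57BL/6J mouse, which served as a reference in a study of microglia-like cells (MLCs) in the brain. A barcode was taken as a B cell if it had at least 200 detected genes, at most 10% mitochondrial unique molecular identifiers (UMIs), UMIs of at least 3 of the 6 genes Cd79a, Cd79b, Ms4a1, Igkc, Ighm and Ly6d, and UMIs of fewer than 3 of the 7 monocyte genes Ly6c2, Ccr2, Plac8, S100a4, Chil3, Vcan and Fn1. Of the 2500 deposited barcodes of this library, 341 passed the filters on genes and mitochondrial UMIs, and 99 of these met the marker rule (29.0%, exact 95% interval 24.3% to 34.2%). The whole series held 30775 kept cells in 12 libraries. The blood donor carried no transgene or treatment according to the labels, which give its age as 8 to 12 weeks and call the cells white blood cells. The other naive libraries came from brain, with 1 library each of neurons, astrocytes and microglia, and carry the same strain and age labels. The 8 treated libraries held CD45+ CD11b+ Cx3cr1+ brain cells of 4 busulfan-conditioned C57BL/6J mice, labelled 22 to 28 weeks old, which had received stem and progenitor cells carrying a GFP lentiviral vector by the i.v. (IV) or i.c.v. (ICV) route, and GFP+ and GFP- cells were sorted into separate libraries. The study describes a longer interval between dosing and collection than the labelled age of the treated mice allows, and the conflict was not resolved here. The labels and the study give the blood library as peripheral blood, yet Prg4 and Retnla, known from resident macrophages, were found in 41 and 47 of its 242 other kept cells, and Itgam was found in 25 of the B cells. Whether all cells of the library came from blood was not tested, so the 29.0% is a share of the library as labelled. Blood was measured in a single library of a single animal, so no result below has a replicate and no test was made. Intervals in the text are 95% intervals that cover counting error only.

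B cells recognize antigen through a membrane immunoglobulin made of heavy and light chains, which signals through the partner proteins Cd79a and Cd79b. A developing B cell productively rearranges its heavy-chain locus and then a kappa or a lambda light-chain locus, and usually expresses only one of the light-chain types. Mature B cells that have not met antigen carry IgM, and most of them also IgD, on the surface. They circulate between blood and lymphoid follicles, while B-1 cells form a separate pool that is best known from the body cavities and as a source of natural IgM.

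The 99 B cells held 686051 UMIs, with 474 to 21392 UMIs per cell and a median of 5797. The other 242 kept cells held 1944797 UMIs. Among them, 104 had at least 3 monocyte markers and fewer than 3 B cell markers (956156 UMIs, median 8495 per cell) and are called monocyte-marker cells below, and 11 had at least 3 T cell or at least 3 NK cell markers (40691 UMIs). A further 29 kept cells carried at least 3 B cell and at least 3 monocyte markers. These stayed among the other cells, and comparisons were therefore also read against the monocyte-marker cells alone. No doublet caller was run on a library of this size. The library shared 2 kept barcodes with the 11 other libraries, and none of these belonged to a B cell.

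The 6 markers chose the cells, so their levels are a description and do not bear on the label. UMIs of all 6 markers were found in 84 cells, of 5 in 11 cells, of 4 in 3 cells and of 3 in 1 cell. Igkc, the kappa constant gene (chr6:70726435-70726966 on GRCm38, plus strand), had 0 to 322 UMIs per B cell with a median of 43. Ighm, the constant gene of IgM (chr12:113418558-113422730, minus strand), had 1 to 255 with a median of 28. The signalling partner Cd79a (chr7:24897381-24902197, plus strand) had 0 to 67 with a median of 15, and Cd79b (chr11:106311341-106314762, minus strand) had 0 to 38 with a median of 8. The surface protein Ms4a1, known as CD20 (chr19:11249675-11266241, minus strand), had 0 to 35 with a median of 7, and Ly6d (chr15:74762056-74763620, minus strand) had 0 to 36 with a median of 12. The 104 monocyte-marker cells together held 35 UMIs of Igkc, 144 of Ighm, 6 of Cd79a, 8 of Cd79b, 6 of Ms4a1 and 11 of Ly6d.

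**Figure D1:**
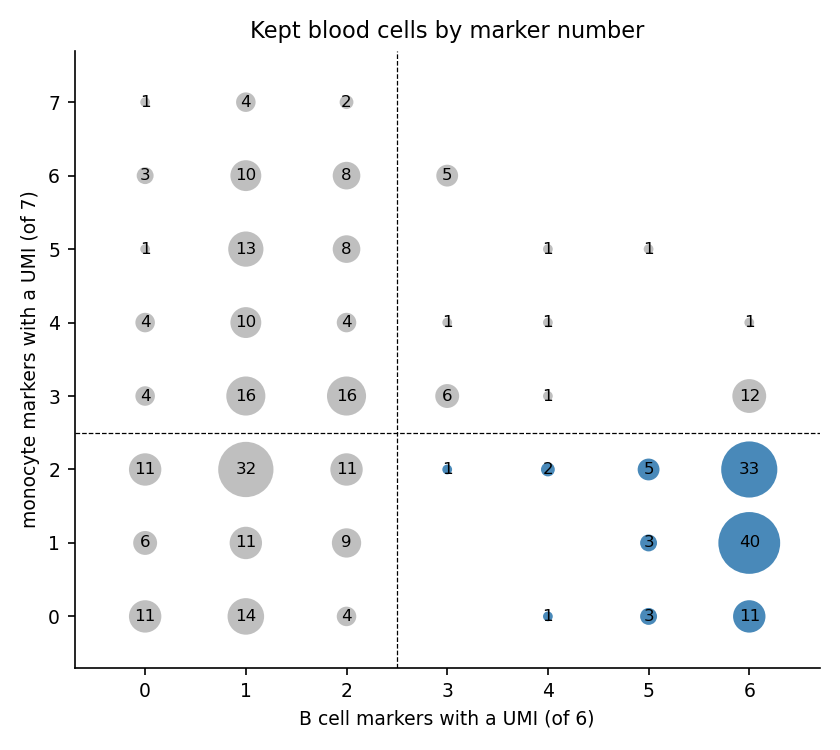
Kept cells of the blood library by the number of B cell markers (horizontal, of 6) and of monocyte markers (vertical, of 7) with a UMI. Circle area and the printed number give the cells, blue circles are the 99 B cells, and dashed lines mark the limits of the rule. The circle of 6 B cell and 3 monocyte markers holds 12 cells that lie just outside.

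Cells lay close to both limits of the rule. With fewer than 3 monocyte markers, 24 kept cells had exactly 2 B cell markers, just outside the B cell limit, and 1 member had exactly 3. No monocyte marker was detected in 15 B cells, 1 in 43 and 2 in 41, and the pair found was Plac8 and S100a4 in 30 of these 41. Just outside the monocyte limit, 19 kept cells had at least 3 B cell markers and exactly 3 monocyte markers. All 6 B cell markers were present in 12 of these 19, their median Igkc was 39 UMIs, against 62 in the B cells with 2 monocyte markers, and their median of the myeloid lysozyme gene Lyz2 was 2 UMIs, against 1. Plac8 was found in 78 of the 99 B cells and S100a4 in 33, whereas Chil3 and Vcan were found in none.

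A total of 3 B cells had fewer than 10 light-chain UMIs (2, 3 and 6), where the other 96 had 21 to 367 with a median of 65. One of the 3 held 17385 UMIs and was led by Lyz2 with 1044 UMIs and Slpi with 944, and it supplied 219 of the 228 Fn1 UMIs and 102 of the 111 Pf4 UMIs of all B cells. Without these 3 cells, Lyz2 came to 155 CPM (UMIs of a gene scaled to a fixed total) in the summed B cells, against 1714 CPM with them, and Cd74 to 12323 CPM against 12703 CPM. The B cells also had a high share of mitochondrial UMIs, with a median of 7.74% against 4.24% in monocyte-marker cells. With the stricter limits of 500 genes and 5%, only 3 B cells remained, among 167 kept cells.

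Against the other blood cells, B cells had higher levels of some genes of B cell identity and antigen receptor signalling. These included Ebf1, Pax5, Blk and Bank1. Levels of the myeloid gene Lyz2 and of the neutrophil markers S100a8 and S100a9 were lower than in the other cells as a whole. UMIs were summed over each set of cells and scaled to the same total as CPM, and 6499 genes reached 20 CPM in one or both sums. Of these, 260 were at least 4-fold higher in B cells (4%) and 673 at least 4-fold lower (10.4%). The median log2 ratio of all 6499 genes was -0.14. Against the monocyte-marker cells alone, 336 of 6448 genes were at least 4-fold higher (5.21%) and 669 were at least 4-fold lower (10.4%). With the 29 cells of both marker types left out of the other cells, 293 of 6535 genes were at least 4-fold higher (4.48%) and 717 were at least 4-fold lower (11%). Ratios of single genes to the other cells, given below, include these 29 cells unless stated. Among genes with at least 200 CPM that were neither markers nor immunoglobulins, the 15 largest ratios all rose without the 29 cells. They then ran from 14.3 (H2-Ob) to 178 (Fcrla).

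**Figure D2:**
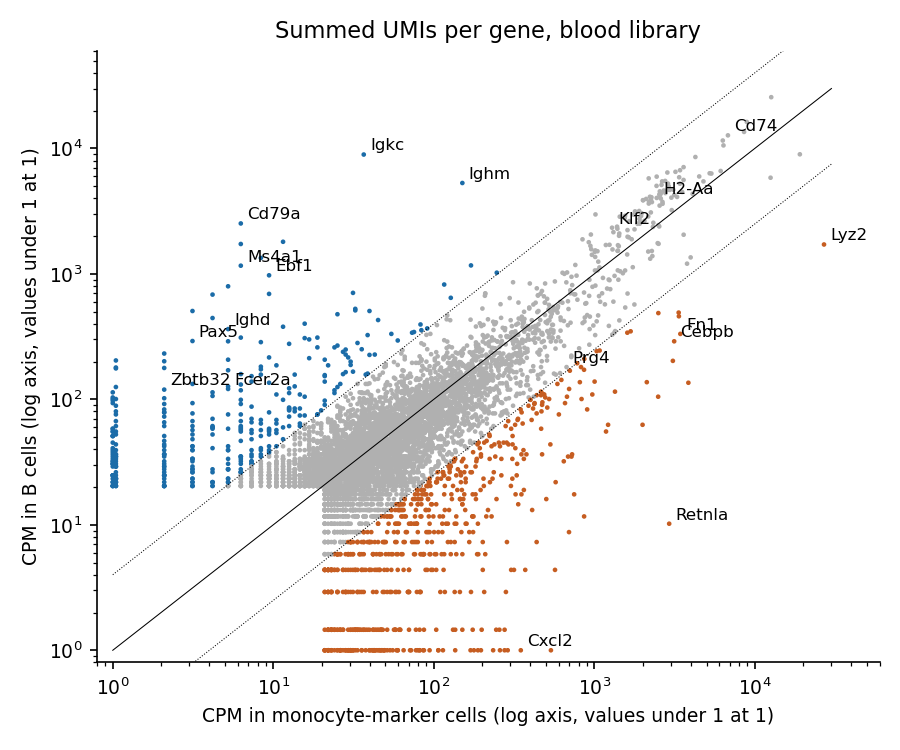
CPM of each gene in the summed UMIs of the monocyte-marker cells (horizontal) and of the B cells (vertical), both on log axes. Genes at least 4-fold higher in B cells are blue, genes at least 4-fold lower are orange, and the solid and dotted lines mark equality and 4-fold differences. Ebf1 and Pax5 lie far above the lines, Cd74 and H2-Aa lie between them, and Cxcl2 had no UMI in B cells.

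Transcription factors that set B cell identity were among the genes with the highest ratios. Ebf1 (chr11:44617317-45008091, plus strand), a factor that commits progenitors to the lineage, had 668 UMIs in 94 of the 99 B cells, with 0 to 20 per cell and a median of 6. The monocyte-marker cells held 9 UMIs of it. Its level was 974 CPM in B cells and 65.3 CPM in the other cells, a ratio of 14.9 (12.3 to 18.2). Pax5 (chr4:44524757-44710487, minus strand), which maintains B cell identity, was 12.3-fold higher (8.91 to 17.4) and was found in 82 B cells with at most 7 UMIs in a cell. Spib, an Ets-family factor, was 16.5-fold higher (10.7 to 26.7), and Pou2af1, the coactivator of the octamer-binding Oct factors, was 10.0-fold higher (6.99 to 14.7). The other cells without the 29 of both marker types held 12 of the 127 Ebf1 UMIs. Against these cells the ratios were 125 for Ebf1, 49.7 for Pax5, 104 for Spib and 154 for Pou2af1. Of 26 genes listed as B lineage transcription factors, 25 reached 20 CPM in one of the sums, 8 were at least 4-fold higher in B cells and 3 at least 4-fold lower, with a median log2 ratio of 1.25. The 8 also included Ikzf3, Bach2, Bcl11a and Ets1, at ratios of 5.79 to 8.03. The 3 lower genes were Spi1 (0.214), which B cells share with myeloid cells, and the myeloid factors Cebpb (0.0890) and Cebpa (0.165). Ikzf1, Nfkb1 and Rel, which act in many blood lineages, had ratios of 0.935, 1.02 and 0.828.

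Genes of the receptor complex, its coreceptors and its inhibitors made up much of the rest. Cr2, the complement receptor CD21 of the coreceptor complex, was 12.4-fold higher (6.72 to 24.8) but was found in 28 B cells only, and Cd81, a widely expressed member of the same complex, had a ratio of 1.60 (1.32 to 1.92). Of 8 genes in this list, 5 were at least 4-fold higher, 2 of which (Cd79a and Cd79b) belong to the rule, and 1 was lower, the interferon-induced Ifitm3 (0.0469). Among 14 inhibitory receptors, 13 were measured at this level, 7 were higher and 2 lower. Fcrla, an intracellular Fc receptor-like protein of B cells, had the largest ratio of genes with at least 200 CPM that were neither markers nor immunoglobulins (17.3, 11.4 to 27.4), and Siglecg and Cd22, which bind sialic acid and dampen receptor signals, were 10.6-fold (7.83 to 14.7) and 8.30-fold (5.81 to 12.1) higher. Cd72, Fcrl1, Fcrl5 and Btla made up the remainder of the 7. Lair1 and Cd300a, receptors of other leukocytes as well, were lower (0.0405 and 0.0141), and Fcgr2b, the inhibitory Fc receptor of B and myeloid cells, had a ratio of 0.715 (0.553 to 0.917).

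The signalling genes split between those used mainly by B cells and those shared with other leukocytes. Of 23 genes listed, 22 were measured and 6 were at least 4-fold higher, with none lower and a median log2 ratio of 0.67. Blk, a Src-family kinase of B cells, had 121 UMIs in the B cells and 1 in the monocyte-marker cells, and it was 10.4-fold higher (7.02 to 15.8) than in the other cells. The scaffold Bank1 was found in 95 B cells and was 9.80-fold higher (8.10 to 11.9), the exchange factor Ralgps2 was found in 94 and was 9.28-fold higher (7.24 to 12.0), and the adaptor Blnk was found in 73 and was 6.48-fold higher (4.70 to 9.04). Rasgrp3, an exchange factor for Ras, was 4.44-fold higher (2.56 to 7.84). In contrast, Syk was 2.25-fold higher (1.98 to 2.55), Btk 1.51-fold (1.04 to 2.17) and Plcg2 1.04-fold (0.791 to 1.35), and Lyn, which monocytes also use, had a ratio of 0.707 (0.595 to 0.836).

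Several of the 15 genes with the largest ratios fell outside these groups. Fcmr, the Fc receptor for IgM, was 17.0-fold higher (12.6 to 23.3), Cd38, an NAD-consuming surface enzyme, was 14.9-fold (9.83 to 23.4), Mzb1, a chaperone for immunoglobulin assembly, was 13.9-fold (10.7 to 18.1), Cd55, a complement regulator, was 13.1-fold (9.51 to 18.5) and Scd1, a fatty acid desaturase, was 10.8-fold (8.27 to 14.4). Mzb1 ranged from 0 to 31 UMIs per B cell and was found in 73. The 10 genes with the smallest ratios were Retnla, Ear2, Clec4a1, S100a8, Cxcl2, S100a9, Gsr, Hp, Ly6c2 and Cd300a, and Ly6c2 is one of the rule's own genes. Cxcl2, a neutrophil-attracting chemokine, had 1058 UMIs in the other cells and 0 in the B cells, so it was at least 124-fold lower if 3 counts are taken as the limit. The calgranulin genes S100a8 and S100a9, markers of neutrophils, were 141-fold and 108-fold lower than in the other cells. Against the monocyte-marker cells alone, their log2 ratios were only -0.106 and -0.414.

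**Figure D3:**
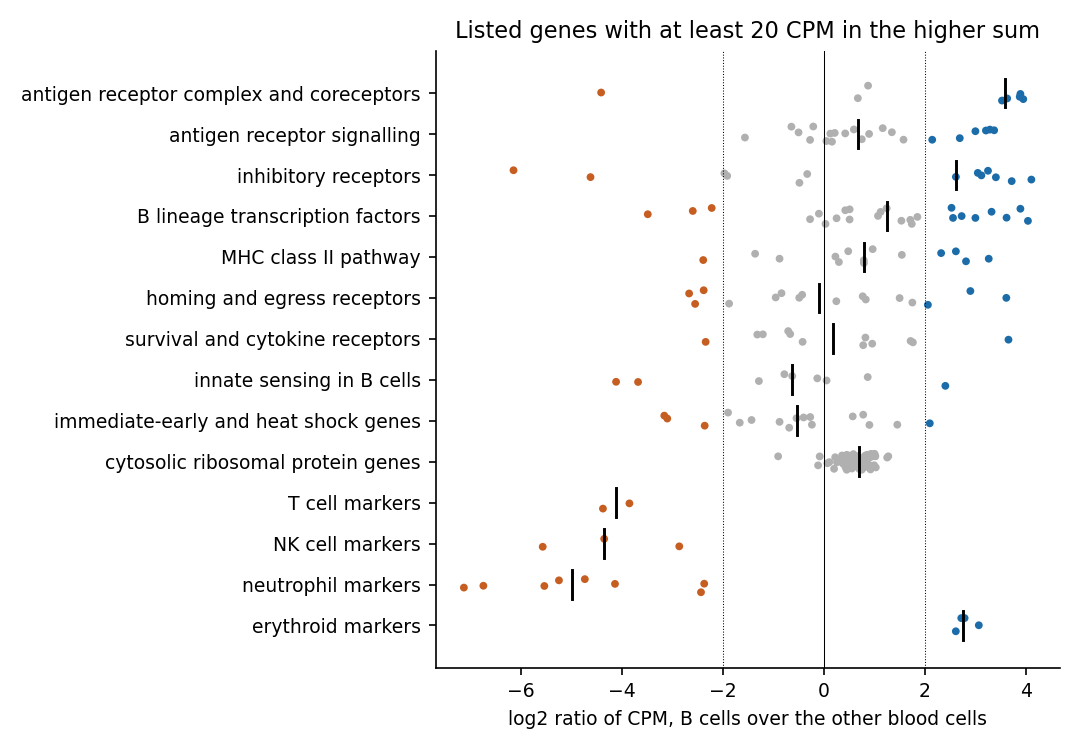
Log2 ratio of CPM between B cells and the other blood cells for those listed genes that reached 20 CPM in one or both sums, 1 point per gene. Black bars are list medians, dotted lines mark 4-fold differences, and blue and orange points lie beyond them. The rule's own markers and the immunoglobulin constant genes are not drawn, and among the lists drawn the medians run from -4.99 for neutrophil markers to 3.58 for the antigen receptor complex and coreceptors.

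MHC class II genes let B cells and other antigen-presenting cells display peptides to helper T cells. Their summed UMIs were high in both B cells and monocyte-marker cells, but single cells differed more than the sums. The listed genes together made up a median of 2.43% of the UMIs of a B cell and 0.377% of those of a monocyte-marker cell. The invariant chain gene Cd74 had 3 to 663 UMIs per B cell with a median of 73. Its level was 12703 CPM in the summed B cells, against 6798 CPM in the summed monocyte-marker cells. In a draw of 1000 UMIs per cell, Cd74 was found in 99.0% of B cells and 59.2% of monocyte-marker cells. H2-Aa, H2-Ab1 and H2-Eb1, which encode class II chains, were 1.35-fold to 1.80-fold higher than in monocyte-marker cells. By contrast, H2-Ob and H2-Oa, whose products form the DO protein that restrains peptide loading, were 19.6-fold and 42.3-fold higher than in monocyte-marker cells, and the DM chain gene H2-DMb2 was 16.2-fold higher, whereas H2-DMb1 was lower (0.438). The 2 DM beta genes are close paralogs, and reads may have been split between them. Ctss, a protease that trims the invariant chain, had a ratio of 0.321. Of 17 listed genes, 16 are in the files, 14 were measured, 4 were higher and 1 was lower than in the other blood cells, with a median log2 ratio of 0.79.

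Receptors for position and survival differed gene by gene. Cxcr5, the receptor that leads B cells into follicles, had 0 to 7 UMIs per B cell, was found in 42 B cells and in 0 of the 104 monocyte-marker cells, and was 12.3-fold higher (7.29 to 21.8) than in the other cells. Ccr7, which guides cells into lymph nodes, was 7.50-fold higher (5.52 to 10.3), and S1pr1, which guides them out again, was 4.18-fold higher (3.22 to 5.45). The integrin genes Itgal and Itgb2 and the selectin ligand gene Selplg were lower, at 0.157 to 0.192. Of 19 such genes, 16 were measured, 3 were higher and 3 lower, with a median log2 ratio of -0.09. Tnfrsf13c, the receptor for the survival factor BAFF, was the 1 of 12 measured survival and cytokine receptor genes that was at least 4-fold higher (12.7, 8.35 to 19.8), and Ifngr1 was the 1 that was lower (0.197). Tnfrsf13b, a relative of Tnfrsf13c, was 3.30-fold higher (2.45 to 4.45). Tnfrsf17, the relative found on plasma cells, and Il7r had no UMI in B cells. Among innate sensing genes, 1 of 9 was higher (Tlr1) and 2 were lower (Tlr2 and Cd14). Over all 6499 measured genes, 4% were at least 4-fold higher and 10.4% at least 4-fold lower, so these small counts are not read as traits of the lists.

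Immediate-early and heat shock genes, which respond to activation and to handling, differed in both directions but were lower as a sum than in the other cells. Their summed level was 8109 CPM in B cells, 14190 CPM in the other cells and 13316 CPM in monocyte-marker cells. In the T or NK marker cells it was 5751 CPM, below that of the B cells. Of 17 measured genes, Cd69 was 4.29-fold higher (3.16 to 5.86) and Egr1, Nr4a1 and Dusp1 were lower, at 0.112 to 0.195, with a median log2 ratio of -0.54. Cd69, an early activation antigen, was found in 52 of 99 B cells at their own depth and in 5 of 104 monocyte-marker cells. Cytosolic ribosomal protein genes had a median log2 ratio of 0.70 over 81 measured genes, and the 13 mitochondrially encoded genes had a median of 0.66. No gene of either list reached 4-fold.

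Markers of other blood cells were low in the B cells, with the exception of the haemoglobins. No B cell had 3 or more markers of T cells, NK cells, neutrophils, platelets, plasmacytoid dendritic cells or microglia. All 13 markers of T cells, NK cells and neutrophils that reached 20 CPM were at least 4-fold lower than in the other cells, and Cd3e, Cd4, Ncr1, Klrb1c, Klra8, Prf1, Retnlg, Mmp8 and Lcn2 had no UMI. The 4 haemoglobin genes were 6.14-fold to 8.42-fold higher in the summed B cells, but 1177 of the 1393 haemoglobin UMIs came from 1 B cell, in which all 6 B cell markers were also found. Without that cell, haemoglobin came to 317 CPM in B cells and 304 CPM in the other cells when their own highest cell was left out as well. Hbb-bs, the most frequent of the 4, was found in 71.7% of B cells and in 74.0% of monocyte-marker cells, and when each cell was thinned to 1000 UMIs the shares were 17.3% and 17.5% in one draw and 22.4% and 13.6% in another.

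Against the 11 T or NK marker cells, 112 of 7336 genes were at least 4-fold higher in B cells (1.53%) and 1145 at least 4-fold lower (15.6%). A single UMI in these 11 cells equals 24.6 CPM, and with a minimum of 100 CPM the second count was 215. The 5 largest ratios in favor of B cells were those of H2-Aa, Cd74, H2-Eb1, H2-Ab1 and Slpi, and 944 of the 979 Slpi UMIs lay in the single B cell led by Lyz2. In the other direction, Gzma, Nkg7 and Ccl5, products of cytotoxic cells, and the T cell receptor constant genes Trbc1 and Trbc2 had 1 to 10 UMIs in B cells and 26 to 374 in the T or NK marker cells.

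Constant genes of IgM and IgD predominated over those of switched isotypes in the cells that the rule selected. UMIs of both Ighm and Ighd, the constant gene of IgD, were found in 74 of 99 B cells and of Ighm alone in 25. Ighd had 0 to 14 UMIs per cell with a median of 2, and after thinning to 1000 UMIs it was found in 31.6% (22.6% to 41.8%) of the 98 B cells that were deep enough, against 0.971% (0.0246% to 5.29%) of 103 monocyte-marker cells. Without thinning, 74.7% of B cells and 3.85% of monocyte-marker cells had an Ighd UMI. Switched isotypes were rare. Ighg1, Ighg2c and Ighe had no UMI, where 3 UMIs would have given 4.37 CPM, Ighg2b had 16 UMIs in 3 cells, Ighg3 had 9 in 2 and Igha had 2 in 2. In all, 7 cells had a switched constant gene, each of them also had Ighm, and in none did switched UMIs exceed those of Ighm. Ighm is a marker of the rule and no switched constant gene is, so the rule could favor IgM cells over switched cells. How frequent switched cells were among all B cells of the library was not tested.

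Genes listed for the stages before and after the resting B cell ranged from 0 to 506 CPM. Rag1, Rag2, Dntt, Igll1 and Vpreb1, which serve gene rearrangement and the pre-B receptor in bone marrow, had no UMI in the 99 cells. Of 11 plasma cell genes, 6 were measured, of which Mzb1 (506 CPM) was higher and Xbp1 lower (0.230). Jchain, Sdc1 and Tnfrsf17 had no UMI, Prdm1, the master regulator of plasma cells, had 19 UMIs in 7 cells, and Irf4 had 52.5 CPM against 22.1 CPM in the other cells. Bcl6, the germinal centre regulator, had 5 UMIs, the proliferation gene Mki67 had 0 and Top2a had 10. Of 11 germinal centre and class switch genes, 4 were measured and 2 were lower (Bcl6 and Fas), while the costimulatory genes Cd86 and Cd80 had 121 and 30.6 CPM against 99.8 and 40.1 CPM. Of 12 transitional genes, 4 were measured, of which Vpreb3 was higher and Spn lower, and Cd24a, a surface protein high on immature B cells, had 427 CPM against 198 CPM. Vpreb3 had 52 UMIs in 24 B cells, 0 to 13 per cell, and 2 UMIs in all other cells, a ratio of 73.7 (19.4 to 624.7).

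Most B cells held more Igkc than Iglc UMIs, and the 2 light-chain types were not cleanly separated. A cell was called kappa or lambda where at least 80% of at least 5 light-chain UMIs were Igkc or Iglc1, Iglc2 and Iglc3 together. By this call 50 cells were kappa and 11 lambda, so 82.0% (70.0% to 90.6%) of the 61 called cells were kappa. Igkc is a marker of the rule and no Iglc gene is, so the rule could favor kappa cells over lambda cells. The share and its interval therefore describe the selected cells only. In the kappa cells Igkc had 19 to 322 UMIs (median 60.5) and the Iglc genes 0 to 45 (median 7). In the lambda cells Igkc had 0 to 16 (median 0) and the Iglc genes 22 to 185 (median 53). Another 36 cells lay between, with 29.3% to 79.6% Igkc (median 70.5%) and 3 to 223 Iglc UMIs, and 2 had fewer than 5 light-chain UMIs. Of these 36, 5 held more Iglc than Igkc UMIs, and 4 had no more Igkc UMIs than the highest lambda cell. Iglc UMIs were thus found in 49 of 50 kappa cells, whereas Igkc was at 0 or 1 UMI in 9 of the 11 lambda cells. No single monocyte-marker cell held more than 2 UMIs of the Iglc genes together. More than that was held by 46 of the 50 kappa cells, while 4 did not exceed it. With a limit of 95%, 14 cells were called and 5 of them were kappa.

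**Figure D4:**
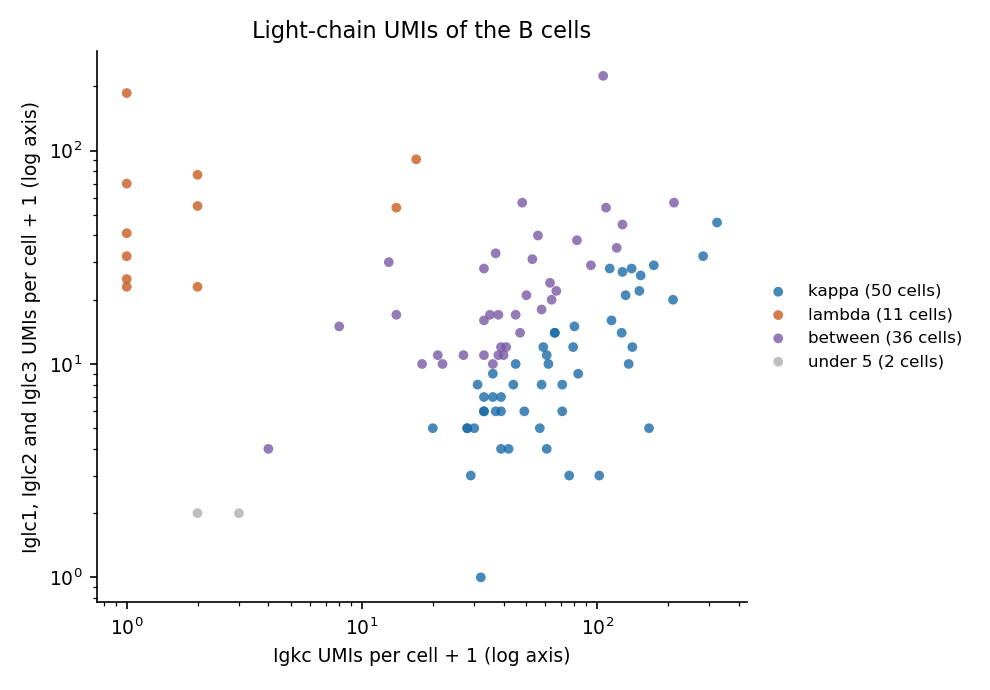
Light-chain UMIs of each of the 99 B cells, Igkc against the sum of Iglc1, Iglc2 and Iglc3, with 1 added to both and log axes. The 11 lambda cells lie at the left with at most 16 Igkc UMIs, and the 36 cells between the calls lie above the 50 kappa cells, 5 of them with more Iglc than Igkc UMIs.

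The lambda cells differed in which constant gene they carried. The cell with the most lambda UMIs held 151 of Iglc2, 30 of Iglc1 and 4 of Iglc3. Iglc1 led in 5 of the 11, with 60 against 14 and 2 in one of them, Iglc2 led in 5 and Iglc3 in 1, with 45 against 5 and 3. Iglc2 and Iglc3 are nearly identical in sequence, so reads may have been divided between them and their separate values are uncertain. Variable genes were hardly covered by these 3-prime libraries: 348 V genes are listed, 35 of them had any UMI, and 59 UMIs lay in 37 B cells. Iglv1 had 8 UMIs in 6 cells and Iglv3 had 3 in 3 cells. The leading kappa gene was Igkv1-110, with 4 UMIs in 2 cells, followed by Igkv12-89 with 3 in 1 cell. Among heavy-chain genes Ighv11-2 led, with 4 UMIs in 2 cells, and Ighv14-4 and Ighv8-12 had 2 in 1 cell each.

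The B cells were not uniform, and genes of the follicular and the B-1 lists were largely found in different cells. Fcer2a, the low-affinity IgE receptor CD23 of follicular B cells, was found in 29 B cells and Zbtb32, a transcriptional repressor, in 35, and 1 cell had both. Bhlhe41, a transcription factor known from B-1 cells, was found in 27, of which 17 also had Zbtb32 and 4 had Fcer2a. The cells were therefore divided, after these values had been seen and as a description only, into 34 with Fcer2a or Cr2 and neither of the others, 34 with Zbtb32 or Bhlhe41 and neither of the first pair, 11 with genes of both pairs and 20 with none of the 4. Depth moved with this division, with a median of 3863.5 UMIs per cell in the Fcer2a or Cr2 cells and of 8942 in the Zbtb32 or Bhlhe41 cells, and so the division was repeated with each cell thinned to 2000 UMIs, which gave 29, 20, 1 and 48 of 98 cells. The median share of mitochondrial UMIs was 7.78% in the first set and 7.75% in the second.

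Genes that had not been used for the division also differed between the 2 sets, at the cells' own depth and at 2000 UMIs. S100a6, a calcium-binding protein gene, had 40 UMIs in 6 of the 34 Fcer2a or Cr2 cells and 1854 UMIs in 32 of the 34 Zbtb32 or Bhlhe41 cells, a ratio of 20.4 (14.9 to 28.7), and at 2000 UMIs per cell the ratio was 16.6 (9.80 to 30.4). Ahnak, a large scaffold protein gene of the B-1 list, was 8.29-fold higher in the Zbtb32 or Bhlhe41 cells (5.40 to 13.4) and 14.2-fold higher at 2000 UMIs (5.69 to 45.7). The intermediate filament gene Vim was 6.08-fold higher (4.79 to 7.82) and 5.55-fold at 2000 UMIs (3.66 to 8.67). Nid1, a basement membrane gene, was found in 20 cells of that set and in 0 of the other, and Ctla4, an inhibitory receptor best known from T cells, in 15 and 0, but at 2000 UMIs per cell Ctla4 had only 1 UMI in the first and 0 in the second. Cd9, a tetraspanin also known from marginal zone cells, was 4.70-fold higher (1.47 to 24.0) and 9.43-fold at 2000 UMIs (2.13 to 86.0). S100a4 and Plac8, which are among the rule's monocyte genes, were 11.1-fold (5.26 to 27.9) and 3.13-fold higher (2.44 to 4.08), so the monocyte limit of the rule bears more on these cells.

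Genes that were higher in the Fcer2a or Cr2 cells included several of the follicular list. Ighd had 136 UMIs in 32 of these 34 cells and 40 UMIs in 18 of the other 34, and it was 7.72-fold lower in the Zbtb32 or Bhlhe41 cells and 8.97-fold lower at 2000 UMIs. Satb1, a chromatin organizer of lymphocytes, had 45 and 6 UMIs, a 17.0-fold difference, and 16 and 0 at 2000 UMIs per cell. Vpreb3 had 25 UMIs in 14 cells and 1 UMI in 1 cell of the other set, a ratio of 0.0176 (0.000429 to 0.108). The homing gene Ccr7 had a ratio of 0.482 (0.311 to 0.751), Btg1, an antiproliferative gene of resting lymphocytes, 0.296 (0.244 to 0.360) and Ebf1 0.397 (0.329 to 0.478). At 2000 UMIs the interval of Ccr7 included 1, from 0.184 to 1.58. Fcmr, also on the follicular list, had a ratio of 0.818 (0.624 to 1.08) and of 0.494 (0.261 to 0.887) at 2000 UMIs. Cxcr5, on the same list, had a ratio of 1.58 (0.818 to 3.29) that turned to 0.725 (0.0656 to 5.06) at 2000 UMIs, so no direction can be read for it.

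Ighm and Igkc differed less between the 2 sets than Ighd did. Ighm had a ratio of 1.38 (1.26 to 1.51) in the Zbtb32 or Bhlhe41 cells, which narrowed to 1.18 (0.982 to 1.41) at 2000 UMIs, and Igkc had ratios of 0.939 and 0.847. Cd79a stood at 0.828 (0.736 to 0.931). The switched genes Ighg2b and Ighg3 were found in 3 and 2 of the Zbtb32 or Bhlhe41 cells and in none of the Fcer2a or Cr2 cells. At 2000 UMIs per cell Ighg2b was at 0 in both sets, and Ighg3 had 4 UMIs in 2 cells against 0. Cd5, the surface marker of the B-1a subset, had 1 UMI in all 99 B cells, Spn was found in 9 Zbtb32 or Bhlhe41 cells and 0 of the others, and Itgam, the CD11b chain that B-1 cells of the body cavities carry, was found in 17 and 0. At 2000 UMIs per cell Spn and Itgam came down to 1 and 3 UMIs against 0, so these 2 differences rest on the deeper counts. Over all 6464 measured genes, 153 were at least 4-fold higher in the Zbtb32 or Bhlhe41 cells (2.37%) and 369 at least 4-fold lower (5.71%). At 2000 UMIs these numbers were 199 and 176 of 6756 (2.95% and 2.61%). There 1 UMI equals 25 CPM in the Zbtb32 or Bhlhe41 cells and 17.2 CPM in the Fcer2a or Cr2 cells. With a minimum of 20 CPM and sums of 0 set to 3 counts, the counts at 2000 UMIs can rest on few UMIs.

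**Figure D5:**
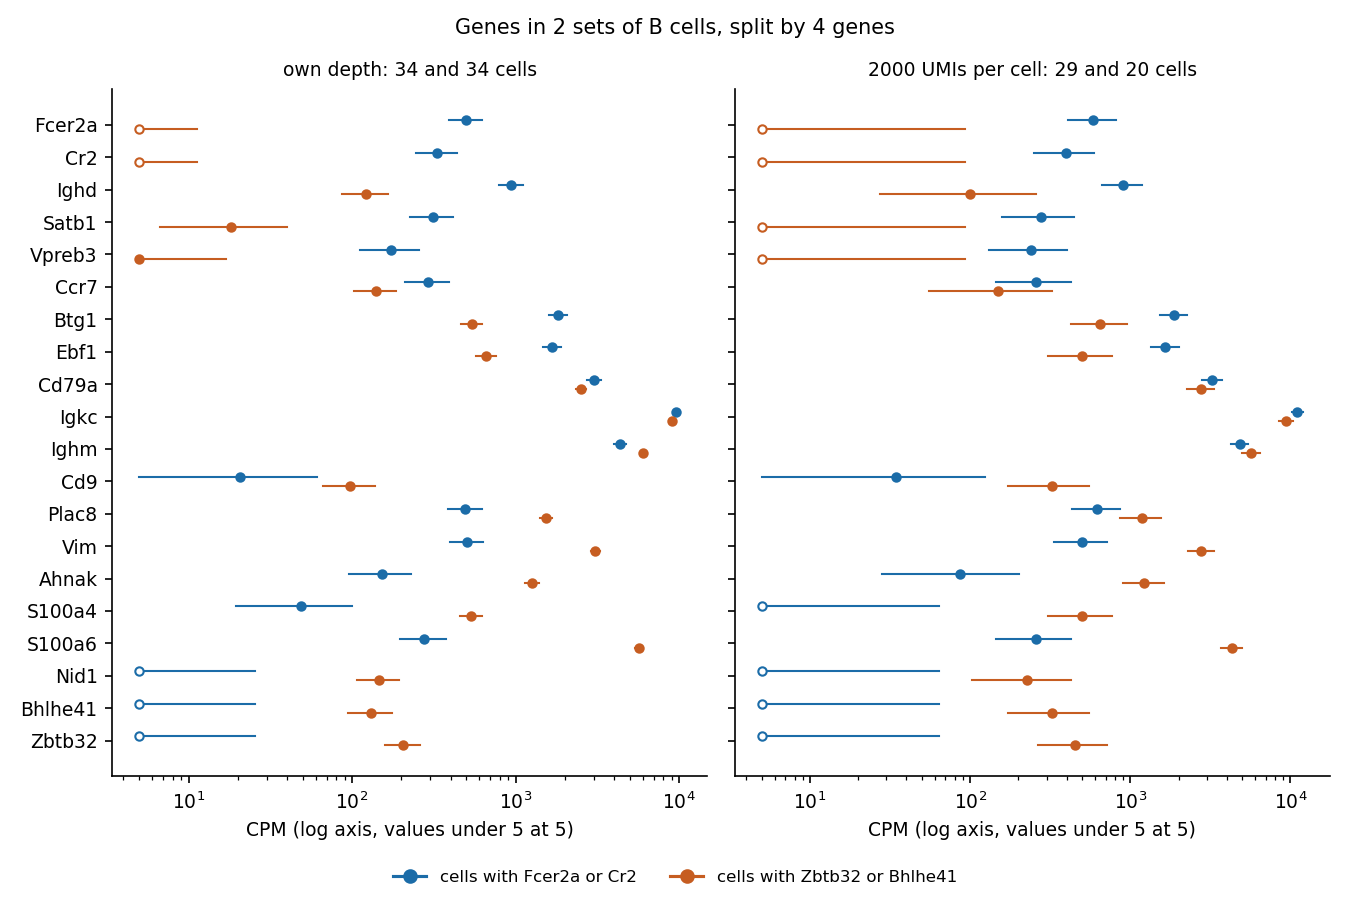
CPM with exact Poisson intervals of selected genes in the B cells with Fcer2a or Cr2 (blue) and in those with Zbtb32 or Bhlhe41 (orange), at the cells' own depth (left, 34 and 34 cells) and after 2000 UMIs were drawn per cell (right, 29 and 20 cells), on log axes. Open symbols mark sums of 0, the 4 genes that define the sets are apart by construction, and S100a6, Ahnak and Vim lie higher in the orange set and Ighd and Satb1 in the blue set in both panels.

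The promoters of B cell genes were searched for the octamer, the sequence bound by the Oct factors that Pou2af1 assists and a known element of immunoglobulin promoters. The motif ATGCAAAT was sought on both strands in RefSeq windows on GRCm38.p6, from 250 bases before to 50 bases after the annotated start. Of the 260 genes at least 4-fold higher in B cells, 189 matched the promoter table and 7 of these held an octamer (3.70%, 1.50% to 7.48%), against 84 of 5175 matched genes among all those measured (1.62%) and 532 of 27025 genes of the whole table (1.97%). The interval of the B cell genes includes both of these shares. The 7 genes were Vpreb3, Blnk, Chchd10, Fcho1, Itpr3, 1810046K07Rik and D130040H23Rik. The windows of 3 of them are shown because Vpreb3 has the largest ratio of these genes, Chchd10 is its neighbor, and Blnk is the receptor adaptor described above. They are written 5′ to 3′ in the direction of the gene, with octamers in capitals, at chr10:75948050-75948349 (plus strand), chr10:75932880-75933179 (plus strand) and chr19:40994172-40994471 (minus strand).
Vpreb3: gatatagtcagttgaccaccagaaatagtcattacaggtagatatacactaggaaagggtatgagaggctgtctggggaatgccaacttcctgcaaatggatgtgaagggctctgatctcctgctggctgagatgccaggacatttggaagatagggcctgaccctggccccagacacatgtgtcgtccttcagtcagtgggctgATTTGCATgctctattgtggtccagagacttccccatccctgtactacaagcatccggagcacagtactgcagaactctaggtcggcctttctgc
Chchd10: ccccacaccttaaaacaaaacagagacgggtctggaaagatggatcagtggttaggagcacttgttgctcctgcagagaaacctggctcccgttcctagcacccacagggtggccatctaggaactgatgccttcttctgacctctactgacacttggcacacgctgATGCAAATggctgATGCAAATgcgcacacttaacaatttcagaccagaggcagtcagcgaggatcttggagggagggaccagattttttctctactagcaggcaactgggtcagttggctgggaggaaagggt
Blnk: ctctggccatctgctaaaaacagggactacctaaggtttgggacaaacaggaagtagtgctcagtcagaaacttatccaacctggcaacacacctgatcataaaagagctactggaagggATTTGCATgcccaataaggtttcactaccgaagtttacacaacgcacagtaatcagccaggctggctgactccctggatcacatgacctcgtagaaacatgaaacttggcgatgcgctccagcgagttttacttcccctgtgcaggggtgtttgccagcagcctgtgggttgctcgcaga

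The Vpreb3 and Blnk windows hold 1 octamer each, as ATTTGCAT in the direction of the gene, and the Chchd10 window holds 2, as ATGCAAAT. The first base of the Vpreb3 octamer lies 45 bases before the start. The windows of Chchd10 and Vpreb3 are separated by 14871 bases, and both genes lie on the plus strand. Chchd10, a mitochondrial protein gene, had 48 UMIs in 28 B cells and 8 in all other cells, a ratio of 17.0 (7.98 to 41.6). A match describes the letters of a window, and binding was not measured here.

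The same marker rule was applied to the 11 other libraries as a description. These were sorted, the microglia and treated libraries as CD45+ CD11b+ Cx3cr1+ cells and the neurons and astrocytes as CD45- cells, so most B cells would have been gated out and the count says nothing of how frequent B cells are in brain. The rule was met by 4 of their 30434 kept cells, and in 7 of the 11 libraries by none. Of the 4, 3 carried at least 5 of 8 microglia markers. The cell of the naive microglia library had 1390 UMIs, 5 B cell markers and 5 microglia markers, that of an IV GFP- library had 11603 UMIs and all 8 microglia markers, and that of an ICV GFP- library had 583 UMIs and 6. The fourth cell came from an IV GFP+ library and differed from these. It held 5390 UMIs and all 6 B cell markers, with 21 UMIs of Cd79a, 43 of Igkc, 9 of Ighm, 8 of Ms4a1 and 7 of Ly6d. It also had 26 UMIs of Ebf1, 6 of Ighd, 5 of Fcer2a and 1 of Cr2, none of Zbtb32 or Bhlhe41, 1 microglia marker and 1 UMI of the EGFP transgene. By these genes it lay within the ranges of the blood B cells with Fcer2a or Cr2 for Cd79a, Igkc, Ighm and Ighd, while its Ebf1 was above their highest value of 18 and Pax5 was at 0.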

How the data were processed

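Cells were profiled by droplet-based 3-prime single-cell RNA sequencing in 12 libraries. The authors made the deposited tables of raw UMI counts per gene and barcode with Cell Ranger 3.1.0 (per the file headers), against the mm10 genome (submitters' processing notes). The blood table holds 2500 barcodes. Here barcodes were filtered on genes and mitochondrial UMIs and assigned by markers as described above, and UMIs were summed per set of cells and scaled to CPM. A gene was called at a 4-fold ratio, with at least 20 CPM in the higher sum and a sum of 0 set to 3 counts. Sums carry exact Poisson intervals, ratios exact conditional intervals and shares exact binomial (Clopper-Pearson) intervals, at 95%. There was 1 blood library, so no p-value was computed. The sums hold 686051 UMIs (B cells), 1944797 (other cells), 956156 (monocyte-marker cells) and 40691 (T or NK marker cells), and 1 UMI in the last equals 24.6 CPM. Cells were thinned by drawing UMIs without replacement. No doublet caller was run. Alternatives were another filter, other marker limits and CPM minimums, a mean of per-cell CPM, thinning, centring on the median ratio, and other light-chain calls.

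Genes were named by rule: the markers of the rule, members of the gene lists with at least 100 CPM or that define a stage, the 15 largest and 10 smallest ratios to the other cells at a minimum of 200 CPM, the 5 largest each way against T or NK marker cells, and the leading V genes. The members, the lists and the rule were chosen with earlier results of these data known. S100a6, Ahnak, Vim, Nid1, Ctla4 and the other genes of the comparison between the 2 sets of B cells were chosen after their values were seen, as was that division. Gene positions are from GENCODE vM21 on GRCm38, matched by Ensembl identifier for 31011 of 31053 features. A few listed genes are counted in their lists but not reported here by name. The calling script was tested on simulated counts. Python 3.11.15, numpy 2.4.6, scipy 1.17.1, pandas 2.3.3 and matplotlib 3.10.9 were used.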

Additional observations from a re-analysis of the deposited data

Results flagged for a closer look

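Barcodes outside the filters also met the marker rule. A total of 67 barcodes with at least 200 genes did so but exceeded 10% mitochondrial UMIs, with a median of 2516 UMIs and 44.9% mitochondrial UMIs. All 6 B cell markers were present in 24 of them. Relative to UMIs that were not mitochondrial, Cd79a stood at 1788 CPM in these barcodes and at 2725 CPM in the 99 B cells, Igkc at 7398 and 9653 CPM, Ebf1 at 1283 and 1052 CPM, and Ighd at 359 and 392 CPM. Lyz2 stood at 7454 CPM against 1852 CPM in the B cells. Fcer2a was found in 13 of the 67 and Zbtb32 in 9. Another 20 barcodes met the marker rule with fewer than 200 genes, with a median of 259.5 UMIs and 48.4% mitochondrial UMIs, none with all 6 markers.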

How the results depend on the processing

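Of 83 alternatives to 11 results, 55 stayed near the reported value and 28 moved. The filter of 500 genes and 5% mitochondrial UMIs left 3 of the 99 B cells. It turned 36 genes from lower to higher against the other cells, 48 against monocyte-marker cells, and 14 from higher to lower against T or NK marker cells, and calls higher went from 27.9% to 90.9% and from 33.4% to 91.6% of calls in the first 2 comparisons. The B cell share was 1.80%, genes higher and lower were 1100 and 110 against the other cells, 1178 and 108 against monocyte-marker cells, and 39 and 2562 against T or NK marker cells, and 50% of 2 called cells were kappa. The share was 7.44% over all deposited barcodes, 36.1% with 2 markers and 37.5% with no monocyte limit. In treated brain libraries the rule was met by 3 cells, by 5 over all barcodes, by 393 with 2 markers and by 1 with 4. At 100 CPM, genes higher and lower were 89 and 261 against the other cells and 108 and 255 against monocyte-marker cells, and 215 were lower than in T or NK marker cells. At 5 CPM, 492 and 609 were higher than in the other and the monocyte-marker cells and 2963 lower than in T or NK marker cells. At 1000 UMIs per cell, 565 were higher than in the other cells, calls higher were 51.9% of all calls, and 31 were higher and 3549 lower than in T or NK marker cells, with 3 turned from higher to lower, where 3 counts are a large CPM by construction. Kappa was the minority, 35.7%, with a limit of 95%, and Ighd was found in 21.4% at 500 UMIs and 74.7% without thinning. Where not said, the cause was not tested. No paired analysis was possible because blood was a single library. Genes under 20 CPM, switched isotypes and V genes are limited by depth, and 11 T or NK marker cells limit that comparison.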

Other observations

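Genes known from tissue macrophages, chosen after their values were seen, were at higher levels in the other cells of the blood library than in the B cells. Retnla had 3616 CPM in the other cells, where it was found in 47 of 242, and 10.2 CPM in the B cells. Prg4 was found in 41 of the 242 other cells and in 5 B cells, and 120 of its 124 UMIs in B cells lay in 1 cell. Apoe had 2129 CPM in the other cells and 137 CPM in the B cells, where it was found in 32 of 99. Timd4, a phosphatidylserine receptor of resident macrophages, had 43.2 CPM in the other cells and 0 UMIs in B cells. Across the 99 B cells, the total number of UMIs and the number of Ighm UMIs had a Spearman correlation of 0.73, which both share as measures of depth.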
